A study of Mus musculus with 8 samples.

Results

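Starburst amacrine cells are the cholinergic interneurons of the retina, and 162 nuclei of this kind were found among 39496 quality barcodes (0.410%) of a single-nucleus RNA sequencing (snRNA-seq) study of sorted retinal neurons in the mouse. The nuclei were chosen by the counts of 7 genes. A barcode needed at least 1000 unique molecular identifiers (UMIs, each standing for 1 captured transcript) and a mitochondrial share of at most 5%. It could carry at most 1 UMI over Rbpms and Slc17a6, which mark retinal ganglion cells (RGCs). It needed at least 1 UMI over Gad1 and Gad2, which encode the enzymes that make GABA, and a UMI in at least 2 of the 3 cholinergic genes Chat, Slc5a7 and Slc18a3. They were compared with 1067 other GABAergic nuclei, which had at least 3 UMIs over Gad1 and Gad2 and fewer than 2 of the cholinergic genes. A reference of 18744 RGC nuclei, with at least 5 UMIs over Rbpms and Slc17a6 and none in Gad1 or Gad2, gave the background for genes that RGCs lack.

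Starburst cells release both acetylcholine and GABA. Their radial dendrites release transmitter most strongly when an image moves outward along them, and this makes them the source of the inhibition that gives direction-selective ganglion cells their tuning. They come as an ON and an OFF population, whose cell bodies sit in the ganglion cell layer and in the inner nuclear layer respectively. Isl1, Sox2 and Megf10 are known to be expressed in both populations in the mouse, while Fezf1 has been linked to the ON and Rnd3 to the OFF population.

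The study compared Piezo2f/f control mice (replicates 1 to 4) with Olig2-cre;Piezo2f/f conditional knockout (cKO) mice (replicates 10 to 13) on a C57BL/6J background at 120 days of age. The mice used for sequencing were female. Piezo2 encodes a mechanically gated ion channel and its floxed alleles were carried by both groups. The Cre recombinase sits in the single exon of 1 Olig2 allele, and cKO mice were also heterozygous for Olig2. The study used this driver to target the oligodendrocyte lineage, and compared the genotypes in the retina to look for off-target effects. It reported no differentially expressed genes and no Olig2 expression there. Whether Cre acted in amacrine cells was not tested here. Each of the 8 libraries pooled the nuclei of 6 retinae, sorted with antibodies against NeuN and RBPMS to enrich RGCs, so the starburst nuclei are those that came through a gate set for another cell type and their number says nothing of their abundance in the retina.

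The 3 cholinergic genes define these nuclei and are given as a description. Chat, which encodes the enzyme that makes acetylcholine, had a UMI in 152 of the 162 nuclei, with a median of 3 and a maximum of 9 UMIs. Slc5a7, the high-affinity choline transporter, was likewise seen in 152 nuclei, and Slc18a3, the vesicular acetylcholine transporter, in 61. All 3 genes were seen together in 41 nuclei, Chat with Slc5a7 alone in 101, and each of the pairs that include Slc18a3 in 10. Slc18a3 (chr14:32184395-32186807, minus strand, GRCm39) lies within the Chat gene (chr14:32129369-32187946, minus strand), so counts of these 2 genes may share reads. Of the RGC reference nuclei, 2 of 18744 (0.0107%) had UMIs in 2 or more of the 3 genes, at a median of 7620 UMIs per nucleus against 5830 in the starburst nuclei.

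The GABA-synthesis gate was met almost entirely by Gad1. Over all starburst nuclei Gad1 had 421 UMIs and Gad2 had 4, so that Gad2 made up 0.941% of the pair. In the other GABAergic nuclei the counts were 2987 and 1687, a Gad2 share of 36.1%. Since the gate used the sum of the 2 genes, the split between them is a description without a test. Of the starburst nuclei, 50 had exactly 1 Gad UMI, 43 had 2 and 69 had 3 or more.

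Genes known for starburst cells that played no part in the selection were also seen in these nuclei. Isl1, a LIM-homeodomain transcription factor, was detected in 136 nuclei, Megf10, a cell-surface receptor used in starburst cell spacing, in 55 and Sox2, a transcription factor, in 37. At least 1 of them was seen in 145 nuclei (89.5%) and none in 17. The levels below are pooled over nuclei and given in counts per 1000000 UMIs (CPM). Isl1 stood at 426 CPM in the 41 nuclei with all 3 cholinergic genes and at 409 CPM in the 121 nuclei with exactly 2, so the members just inside the threshold had a level close to that of the strictest ones. In the 147 barcodes just outside, with 1 of the 3 genes and a Gad UMI, Isl1 was at 113 CPM, Sox2 at 11.9 CPM and Megf10 at 16.8 CPM. Among the other GABAergic nuclei, the 1017 with none of the 3 genes had 6.63 CPM of Isl1. A further 30 barcodes carried 2 or 3 cholinergic genes but no Gad UMI and were left outside, with Isl1 at 363 CPM, Sox2 at 47.1 CPM and Megf10 at 87.5 CPM. Another 23 were left outside for more than 1 Rbpms or Slc17a6 UMI. These had a median of 9380 UMIs and 244 CPM of Isl1, which RGCs themselves expressed at 110 CPM.

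**Figure D1:**
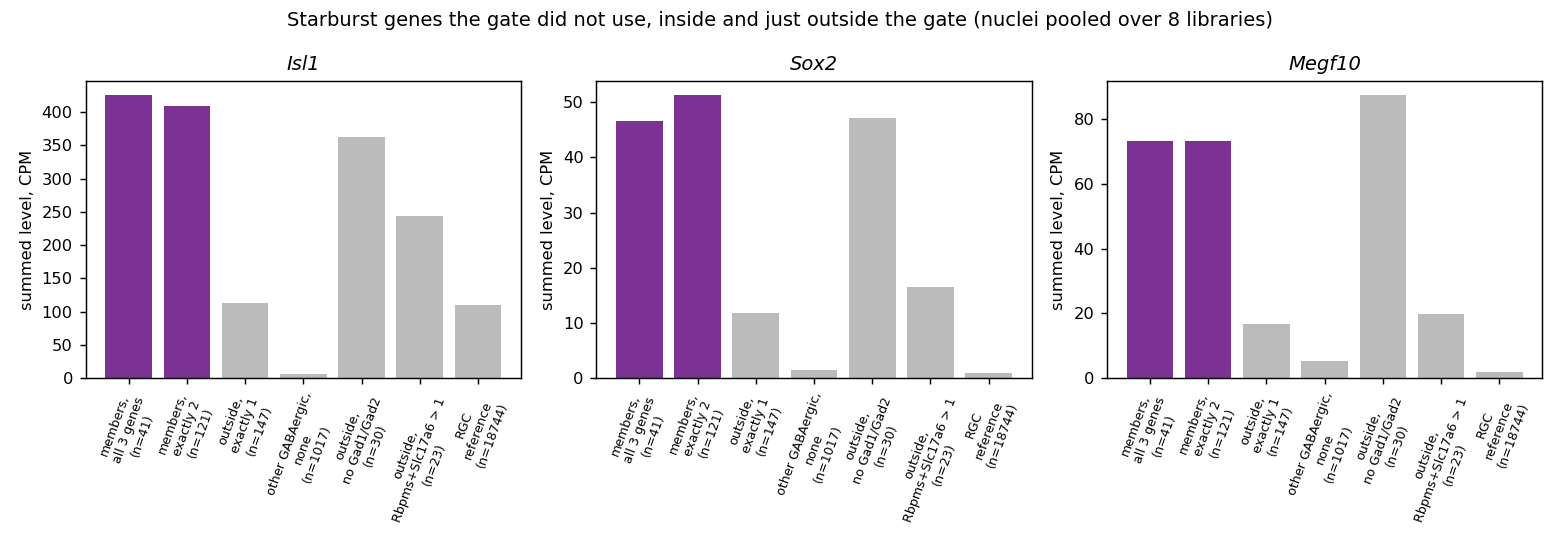
Pooled levels (CPM, linear axes from 0) of Isl1, Sox2 and Megf10, which the selection did not use, in nuclei inside the gate (purple) and in those outside it or in the comparison classes (grey), with the number of nuclei under each bar and no error bars because each bar is 1 pooled sum. Isl1 stands at 426 and 409 CPM in the bars inside the gate and at 6.63 CPM in other GABAergic nuclei without a cholinergic gene.

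The libraries held between 35697629 and 60088630 UMIs over all barcodes. Starburst nuclei numbered 18, 24, 29 and 15 in control replicates 1 to 4 and 34, 6, 15 and 21 in cKO replicates 10 to 13. They carried 1022246 UMIs in all, and a nucleus had between 2086 and 26002 UMIs with a median of 2662.5 genes. The other GABAergic nuclei were deeper, with a median of 7041 UMIs. No starburst barcode occurred in more than 1 library. The cKO replicate 11 had 6 starburst nuclei, where 1 UMI is worth 52.6 CPM, and its values are coarse throughout. UMIs were therefore summed over the nuclei of a class in each library, and classes were compared over these sums. The values below are CPM of the sums as the mean ± SD over 8 libraries, and each log2 fold change is that of starburst over other GABAergic nuclei. Where a standard error (SE) follows it, this was worked back from the fold change and its test statistic. A value without a unit in parentheses after a gene is this log2 fold change. A p-value here measures the spread between libraries of pooled retinae.

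Starburst nuclei differed widely from other GABAergic nuclei. Of 6425 genes tested outside the selection, 949 were higher (14.8%) and 1128 lower (17.6%) at an adjusted p under 0.05 with an absolute log2 fold change over 0.5. The median over all tested genes was -0.02, and it was -0.12 with the DESeq2 scaling. The balance moved with the method, to 738 higher and 1184 lower with DESeq2 and 823 and 1292 with the RLE scaling of edgeR. Without a filter on low counts it was 999 and 2429. Because both classes were cut from the same nuclei by counts of other genes, these shares serve as the background against which each group of genes below is read. A filter on low counts left out sparse genes, and a gene could pass it on its level in 1 class alone. A gene silent in starburst nuclei could therefore only be called lower, and a gene near silent in the other class only higher. Such genes count in the tallies below, and how many each list holds was not computed.

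Of the 10 starburst genes outside the selection, 6 could be tested, and of these 3 were higher, 2 lower and 1 did not pass, with a median log2 fold change of 0.73. Isl1 (chr13:116434817-116446235, minus strand) ranged from 295 to 568 CPM with a median of 438 CPM over the starburst sums and from 4.19 to 22.1 CPM with a median of 11.7 CPM in the other class. The classes did not overlap in any library. How many of all tested genes share this was not computed, here or where it is stated below. The log2 fold change of Isl1 was 5.09 ± 0.20 (SE, edgeR adjusted p = 1.81e-17). Isl1, like Megf10 below, was too low in the other class for the filter on low counts, so higher was the only outcome open. Megf10 reached 94.0 ± 69.5 against 5.71 ± 2.85 CPM (log2 fold change 3.63 ± 0.33), with a highest value of 263 CPM in cKO replicate 11. Amigo2, an adhesion protein, was also higher (80.1 ± 41.2 against 30.4 ± 5.99 CPM, log2 fold change 1.28). Sox2 was too sparse for the filter on low counts, at 45.6 ± 20.5 CPM against 2.62 ± 2.36 CPM, and without the filter its log2 fold change was 4.07. A Sox2 UMI was seen in 22.8% of starburst nuclei, 1.69% of other GABAergic and 0.688% of RGC nuclei, and after every nucleus was thinned to 2000 UMIs the shares were 8.02%, 0.473% and 0.204%.

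The remaining genes of this list were mixed. Ache, which encodes the acetylcholine-degrading enzyme, was lower in starburst nuclei (16.8 ± 18.6 against 38.6 ± 8.59 CPM, log2 fold change -1.75, adjusted p = 0.00101), on 11 starburst UMIs. Slc12a2, the chloride importer NKCC1, was also lower (17.6 ± 9.41 against 43.0 ± 9.74 CPM, log2 fold change -0.98, adjusted p = 0.0115). Kcnc2, a Kv3 potassium channel subunit, stood at 966 ± 235 against 850 ± 94.6 CPM and did not pass (adjusted p = 0.304). Grm2, a group II metabotropic glutamate receptor, was untested at 38.0 ± 17.8 against 9.73 ± 1.93 CPM, and without the filter its log2 fold change was 1.66. Fezf1 had a UMI in 3 nuclei and Rnd3 in 14, with none holding both, so that 145 of the 162 nuclei could not be assigned by these genes.

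**Figure D2:**
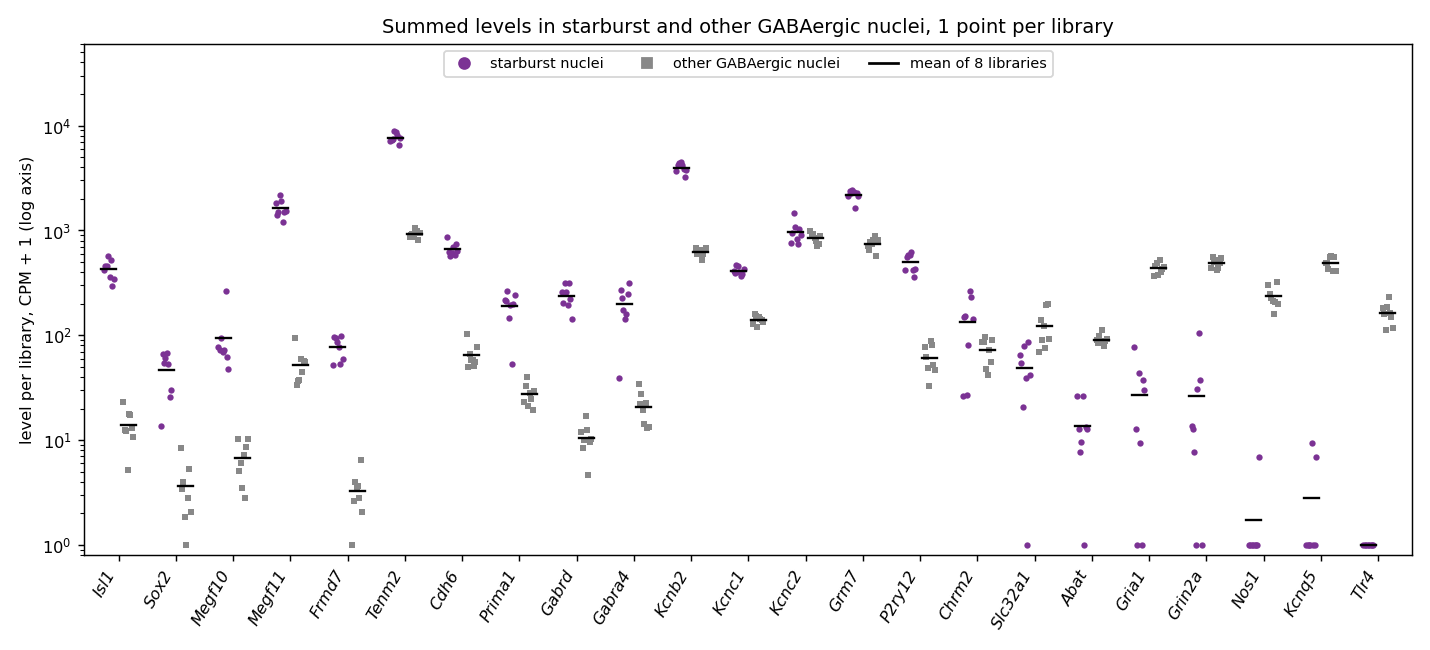
Summed levels of selected genes in starburst (purple circles) and other GABAergic nuclei (grey squares), as CPM + 1 on a log axis with 1 point per library and a black line at the mean of the 8 libraries. For Isl1 the starburst points lie between 295 and 568 CPM and the other points between 4.19 and 22.1 CPM.

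The 15 genes with the largest differences towards starburst nuclei, among those higher in all 8 libraries and at 50 CPM or more, had log2 fold changes between 5.08 and 6.01. For all but Sox2ot, the mean level in other GABAergic nuclei was too low for the filter on low counts. A higher level was the only outcome open to them. Slc24a4, a potassium-dependent sodium-calcium exchanger (chr12:102094935-102235402, plus strand), ranged from 267 to 409 CPM with a median of 361 CPM against 0.838 to 18.5 CPM and a mean of 7.78 CPM (log2 fold change 5.70 ± 0.26, adjusted p = 3.17e-16). Myo5b, an unconventional myosin that moves endosomes, stood at 603 ± 76.6 against 15.1 ± 6.83 CPM (log2 fold change 5.47). Every starburst library exceeded every other GABAergic library for both genes.

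Further protein-coding genes of this set encode secreted factors, enzymes, junction proteins and a chromatin protein. Pdgfc, a platelet-derived growth factor, was at 273 ± 72.6 against 7.94 ± 8.96 CPM and Hmga2, an architectural chromatin protein, at 276 ± 70.2 against 10.2 ± 10.2 CPM. Moxd1, a relative of dopamine beta-hydroxylase, was at 362 ± 68.3 against 13.0 ± 8.30 CPM. Cmtm8 was at 226 ± 70.7 against 5.17 ± 1.49 CPM and Pmfbp1 at 118 ± 48.9 against 2.04 ± 1.59 CPM. Pkp1, a desmosomal plaque protein, was at 103 ± 40.6 against 2.41 ± 2.20 CPM. Galnt15, which starts O-linked glycans, was at 91.3 ± 20.1 against 2.08 ± 1.68 CPM.

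The non-coding genes of the set often lie over another gene. Sox2ot (chr3:34158419-34789489, plus strand) spans Sox2 (chr3:34704554-34706610, plus strand) and stood at 1738 ± 428 against 42.1 ± 27.7 CPM (log2 fold change 5.50 ± 0.21). Gm38505 (chr3:34284523-34405873, minus strand) runs opposite to Sox2ot and stood at 597 ± 157 against 10.8 ± 8.57 CPM. Gm16000 (92.1 ± 22.9 against 1.39 ± 1.81 CPM) overlaps the start of Pdgfc on the other strand, and 4930447N08Rik (132 ± 32.5 against 4.35 ± 2.78 CPM) overlaps Pde5a in the same way. How the counting used strand is not given in the sources used here, so reads of these pairs cannot be told apart. The last of the non-coding genes, 9630002D21Rik, was at 112 ± 87.1 against 2.82 ± 2.55 CPM.

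A few genes outside the 15 were picked after their values were seen, because they belong to known starburst biology. Megf11 (chr9:64292888-64616487, plus strand), the partner of Megf10 in mosaic spacing, ranged from 1210 to 2159 CPM with a median of 1524 CPM against 32.8 to 94.1 CPM with a median of 48.7 CPM, without overlap (log2 fold change 5.05 ± 0.16, adjusted p = 9.7e-19). Frmd7, the gene of X-linked congenital nystagmus that starburst cells need for direction selectivity, was at 76.3 ± 19.6 against 2.27 ± 1.60 CPM (log2 fold change 5.00 ± 0.32). It overlaps Stk26 on the opposite strand and was too sparse in the other class for the filter on low counts, so it could only be called higher.

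The 10 lowest genes were close to silent in starburst nuclei. All 10 passed the filter on low counts only through the other class, so a lower level was the only outcome open to them. Of these, 6 had no UMI in any of the 162 nuclei, and their folds are bounds against a floor of 3 counts over the whole class. Tlr4, a receptor for bacterial lipopolysaccharide, had 1328 UMIs in the other GABAergic nuclei and was at least 53.9-fold lower. The non-coding Pvt1 and Gm57223 were at least 21.3-fold and 20.03-fold lower. Sytl5, a Rab27 effector, was at least 19.7-fold lower and Dcx, a microtubule protein of young neurons, at least 17.7-fold lower. The other 4 genes had 1 to 3 starburst UMIs. Nos1, the neuronal nitric oxide synthase that marks another amacrine type, had 1 UMI against 1896 (ratio of CPM 230.7, 95% counting interval 41.4 to 9115). Kcnq5, a potassium channel subunit, had 3 UMIs against 4077 (ratio 165.3, interval 56.5 to 802). Cngb3, a cyclic nucleotide-gated channel subunit, had 1 against 1391 and the non-coding Gm26871 had 1 against 1571. These intervals cover counting error only.

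The machinery around acetylcholine was uneven. Of 10 genes for its synthesis and breakdown, 5 were tested, 2 were higher and 1, Ache, was lower. Prima1, the membrane anchor of acetylcholinesterase, ranged from 52.6 to 265 CPM with a median of 205 CPM against 18.4 to 39.5 CPM with a median of 25.3 CPM (log2 fold change 2.91 ± 0.18, adjusted p = 2.12e-13). Slc44a5, of the choline transporter-like family, was at 75.1 ± 50.3 against 25.7 ± 13.1 CPM (log2 fold change 1.92, adjusted p = 4.83e-05). Of 18 acetylcholine receptor genes 3 were tested. Chrm3, a Gq-coupled muscarinic receptor, was lower at 16.8 ± 28.9 against 328 ± 48.8 CPM (log2 fold change -4.02), and Chrna7, the alpha7 nicotinic subunit, at 9.07 ± 8.14 against 59.4 ± 10.2 CPM (log2 fold change -2.72). Chrm3 had 21 and Chrna7 9 starburst UMIs, so lower was the only outcome open to them. Chrm2, a Gi-coupled muscarinic receptor, stood at 134 ± 87.4 against 70.9 ± 21.0 CPM (log2 fold change 0.77 ± 0.23, adjusted p = 0.0102). Its starburst libraries ran from 25.5 to 263 CPM and overlapped the other class, the call was lost with DESeq2 (adjusted p = 0.135) and the direction turned when all 3 cholinergic genes were required (-0.43).

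Genes of GABA handling were mostly lower, and GABA receptor genes differed in both directions. Of 6 genes for GABA release and uptake, 4 were tested and 3 were lower. The vesicular transporter Slc32a1 stood at 47.4 ± 28.8 against 122 ± 51.0 CPM (log2 fold change -1.15, adjusted p = 0.000136), the catabolic enzyme Abat at 12.7 ± 8.79 against 90.2 ± 10.4 CPM (-2.66) and the transporter Slc6a11 at 94.9 ± 45.9 against 191 ± 15.8 CPM (-1.06). The comparison class needed 3 Gad UMIs and the starburst nuclei 1. Of 12 tested GABA receptor genes 5 were higher and 5 lower, with a median log2 fold change of -0.06.

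The higher subunits included those of extrasynaptic receptors. Gabrd, the delta subunit, ranged from 141 to 316 CPM with a median of 238 CPM against 3.61 to 15.9 CPM with a median of 9.16 CPM, without overlap (log2 fold change 4.46 ± 0.21, adjusted p = 6.7e-16). In the other class it was too sparse for the filter on low counts, so higher was the only outcome open. Gabra4, a frequent partner of delta, was at 197 ± 87.5 against 19.8 ± 7.46 CPM (3.46). Gabra2 (1.07) and Gabrb1 (0.94) were higher by smaller log2 fold changes. Gabra3, the alpha3 subunit, was lower with 5 starburst UMIs, at 4.54 ± 6.28 against 159 ± 13.5 CPM (-4.94), and lower was the only outcome open to it. The subunits Gabrb2 (-2.55) and Gabrg3 (-2.32) and the metabotropic subunit Gabbr2 (-2.05) were lower too. Of 5 tested glycine genes 3 were lower, among them the receptor subunits Glra3 (-3.86) and Glra2 (-2.80), while Gphn, the scaffold gephyrin, passed at 0.54. Glra4, the alpha4 glycine receptor subunit, was untested at 46.9 ± 46.5 against 2.85 ± 1.07 CPM.

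Ionotropic glutamate receptors were mostly lower and metabotropic ones were split. Of 8 tested AMPA and kainate receptor genes none was higher and 4 were lower, while Gria4 was at 1855 ± 370 against 1884 ± 132 CPM and did not pass. Gria1 was at 25.8 ± 26.3 against 433 ± 54.0 CPM (-4.26), and the kainate receptor subunits Grik1 (-4.45), Grik4 (-2.90) and Grik2 (-1.50) were lower. Grik1 had 11 and Grik4 12 starburst UMIs, so lower was the only outcome open to them. Of 6 tested NMDA and delta receptor genes 4 were lower, with Grin2a at 0 to 105 CPM and a median of 12.3 CPM against 418 to 555 CPM and a median of 491 CPM (-4.93 ± 0.28, adjusted p = 3.16e-14). Grin2b was the 1 member called higher, at 699 ± 87.1 against 446 ± 44.3 CPM (0.63). Of 5 tested metabotropic genes 3 were higher and 2 lower. Grm7, a presynaptic group III receptor, ranged from 1631 to 2434 CPM against 573 to 880 CPM, without overlap (1.58 ± 0.12, adjusted p = 2.74e-11), and its call was lost after thinning to 2000 UMIs (adjusted p = 0.0568). Grm3 (1.20) and Grm8 (0.87) were higher, and the Gq-coupled Grm5 (-3.14) was lower.

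Channel genes were more often lower than higher. Of 19 tested potassium channel genes 3 were higher and 11 lower (median log2 fold change -1.93). Kcnb2, the Kv2.2 delayed rectifier, ranged from 3232 to 4541 CPM with a median of 4027 CPM against 527 to 677 CPM with a median of 626 CPM (2.65 ± 0.11, adjusted p = 5.1e-17). Kcnc1, the Kv3.1 subunit known in starburst dendrites, ranged from 368 to 464 CPM against 118 to 160 CPM (1.58 ± 0.12, adjusted p = 1.11e-11). Kcnma1, the large-conductance calcium-activated channel, passed at a log2 fold change of 0.75. Lower genes included Kcnh7 (-3.67) and Kcnq3 (-2.68). Of 23 tested calcium and sodium channel genes 5 were higher and 13 lower. Cacna2d1, the alpha2delta1 subunit, was at 3084 ± 245 against 659 ± 85.4 CPM (2.23) and Cacna1a, the P/Q-type pore subunit, at 1651 ± 300 against 675 ± 45.1 CPM (1.27). Cacna1b, the N-type pore subunit, passed at 0.53, whereas Cacna1c, the L-type pore subunit, was lower at 60.9 ± 39.4 against 614 ± 25.3 CPM (-3.13). The sodium channel genes Scn9a (-4.17), Scn3a (-4.02) and Scn1a (-2.79) were lower. Scn9a had 12 and Scn3a 11 starburst UMIs, too few for the filter, so lower was the only outcome open to them. The chloride exporter gene Slc12a5 did not pass (264 ± 111 against 262 ± 39.2 CPM).

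**Figure D3:**
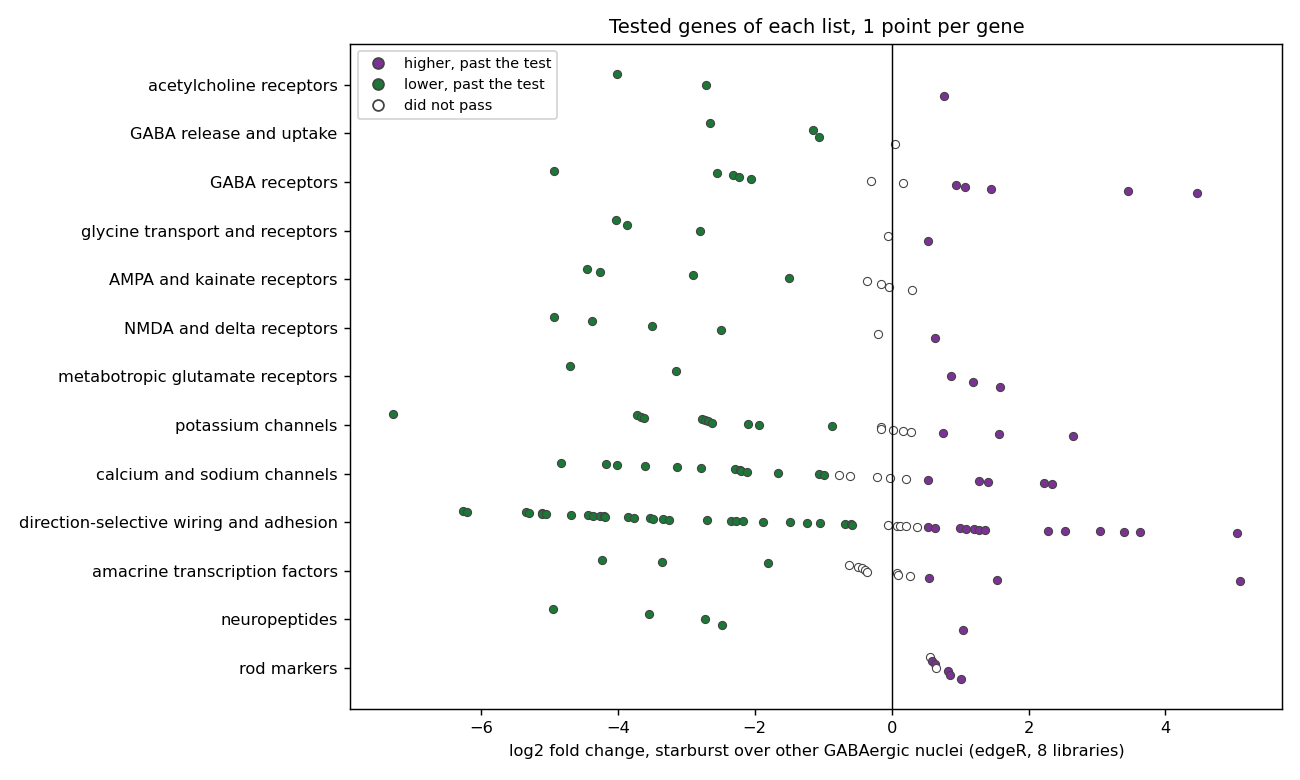
Log2 fold change of starburst over other GABAergic nuclei for each tested gene, 1 row per gene list, with genes past the test coloured by direction (purple higher, green lower) and the rest left white. Potassium channels have 3 higher and 11 lower genes and metabotropic glutamate receptors 3 higher and 2 lower.

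Genes of adhesion and axon guidance made the longest list. Of 52 genes 48 were tested, 13 were higher and 30 lower, with a median log2 fold change of -1.68. Tenm2, a teneurin (chr11:35897483-37126791, minus strand), ranged from 6574 to 8884 CPM with a median of 7545 CPM against 810 to 1055 CPM with a median of 914 CPM (3.04 ± 0.10, adjusted p = 1.62e-18). Cdh6, a type II cadherin, ranged from 571 to 869 CPM against 48.4 to 101 CPM (3.39 ± 0.12, adjusted p = 4.47e-18). Pcdh10, a delta-protocadherin, was at 343 ± 65.3 against 57.5 ± 11.0 CPM (2.53), and Plxna2, the plexin that acts with Sema6a in starburst wiring, at 1043 ± 128 against 209 ± 19.5 CPM (2.29). None of these genes overlapped between the classes, and the share of all tested genes that do not was not computed. Robo2 was higher (1359 ± 179 against 671 ± 88.1 CPM, 1.00) and Robo1 lower (149 ± 325 against 3085 ± 363 CPM, -5.05). Of the 131 Robo1 UMIs in starburst nuclei, 110 came from 3 nuclei. Other lower genes were Cntnap5a (-6.26), Tenm1 (38.2 ± 39.7 against 1131 ± 82.7 CPM, -5.10), Sdk1 (-4.43) and Dscam (-4.18).

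Among 14 tested amacrine transcription factors 3 were higher and 3 lower. The factors shared by amacrine cells did not pass. Tfap2b was at 306 ± 59.6 against 246 ± 44.4 CPM (RGC reference 6.41 CPM), and Pax6 at 320 ± 58.3 against 416 ± 24.4 CPM, a log2 fold change of -0.36 that was under the size threshold. Besides Isl1, Barhl2 (40.9 ± 6.30 against 14.5 ± 4.28 CPM, 1.54) and Zfhx4 (0.55) were higher. Meis2 (78.0 ± 105 against 1459 ± 128 CPM, -4.23) and Lhx9 (-3.35) were lower. The markers of other amacrine types were lower in all 3 tested genes of 18. The list summed to 153 to 255 CPM against 597 to 821 CPM, and these genes may have passed the filter through the other class alone. Of 5 tested neuropeptide genes 4 were lower, among them Tac2 (9.25 ± 8.23 against 319 ± 118 CPM, -4.95), Tac1 (-3.54), Vgf (-2.73) and Cartpt (-2.48). The granin gene Scg2 was higher (418 ± 78.6 against 206 ± 44.3 CPM, 1.05). Npy, neuropeptide Y, was untested at 0 to 128 CPM with a median of 75.2 CPM against 3.04 to 10.9 CPM with a median of 8.61 CPM. Without the filter its log2 fold change was 3.14. Of 8 immediate early genes only Nr4a1 was tested, and it was lower (32.9 ± 22.2 against 86.3 ± 23.7 CPM, -1.16).

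Markers of other retinal cells moved with the class in places, and their part in the results was not tested. Of 8 rod genes 7 were tested and 5 were higher, and their summed level ran from 482 to 2262 CPM in starburst and from 279 to 1208 CPM in other GABAergic nuclei. Bipolar genes summed to 421 to 1248 against 797 to 1052 CPM, with 1 of 2 tested genes lower, and Mueller glia genes to 51.6 to 466 against 271 to 541 CPM, with 1 higher and 1 lower of 4. Of 6 horizontal cell genes 3 were tested, and Calb1 (75.7 ± 29.2 against 22.6 ± 6.05 CPM, 1.80) and Septin4 (1.45) were higher and Tpm3 was lower. None of the cone, astrocyte and oligodendrocyte genes passed the filter on low counts. The microglial marker P2ry12 was higher (495 ± 99.5 against 59.9 ± 19.2 CPM, 3.15), and it lies within Med12l on the opposite strand, which was higher as well (1713 ± 135 against 178 ± 22.4 CPM, 3.27). Of 11 RGC markers, 2 of which the selection used, 3 were tested, with 2 higher and 1 lower. All 11 summed to 111 to 588 CPM in starburst and 118 to 272 CPM in other GABAergic nuclei.

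The starburst nuclei divided into a pair of sets by the genes Tenm3 and Cntn5. This division was noticed in the values and is given as a description without a test. Tenm3 is a teneurin and Cntn5 a contactin, both cell-surface adhesion molecules. In 54 nuclei Tenm3 had more UMIs, in 106 Cntn5 had more, and 2 nuclei were equal. In 155 nuclei 1 gene was at 3 UMIs or more and exceeded 3 times the other, leaving 7 near the line. Both genes were detected in 20 nuclei and both at 3 or more UMIs in 5. The median depth was 5768 UMIs in the Tenm3-high and 5954 UMIs in the Cntn5-high nuclei.

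Tenm3-high nuclei numbered 2, 7, 11 and 4 in control and 8, 2, 10 and 10 in cKO libraries. Cntn5-high nuclei numbered 15, 17, 18 and 11 in control and 26, 3, 5 and 11 in cKO libraries. Some libraries therefore compare very few nuclei. Of 3257 other genes with at least 60 UMIs, 55 were higher in Tenm3-high nuclei in all 8 libraries and 85 in Cntn5-high nuclei in all 8. How many would be so without a link to the sets was not computed. Chrm2 (chr6:36364718-36505582, plus strand) had 119 UMIs in Tenm3-high and 1 UMI in Cntn5-high nuclei and was detected in 70.4% and 0.943% of them. Rftn1, a lipid raft protein, was at 203 against 2.85 CPM and Zfhx3, a homeobox factor, at 580 against 44.2 CPM. The phosphodiesterase gene Pde4b was at 1350 against 143 CPM, Sgcz, a sarcoglycan, at 5292 against 518 CPM and Egfem1 at 2478 against 240 CPM. Also on this side were Trhde (266 against 15.7 CPM), Nav2 (339 against 30.0 CPM), Eya2 (412 against 88.5 CPM) and the GABA receptor subunits Gabrb1 (1680 against 315 CPM) and Gabra4 (393 against 128 CPM).

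On the Cntn5 side, Slit2, a secreted axon guidance ligand (chr5:48140480-48465075, plus strand), had 651 UMIs against 4 and was detected in 96.2% against 3.70% of nuclei. Nrg1, the ligand neuregulin 1 (ENSMUSG00000062991), was at 2723 against 53.9 CPM and Cntnap5b at 462 against 25.4 CPM. Adam12, a metalloprotease, was at 88.5 CPM with no UMI on the Tenm3 side, and the growth factor gene Fgf1 was at 163 against 9.51 CPM. The chloride channel gene Cftr was at 275 against 53.9 CPM, Kcnb2 at 5012 against 2009 CPM in all 8 libraries, the neurofilament gene Nefl at 126 against 22.2 CPM and Pls1 at 81.4 against 12.7 CPM. The non-coding 9630014M24Rik (187 against 25.4 CPM) and Mir670hg (131 against 25.4 CPM) were on this side too. Npy was at 99.9 against 28.5 CPM, higher in 6 of 8 libraries.

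Of the starburst genes outside the selection, Isl1 was at 396 CPM in Tenm3-high and 425 CPM in Cntn5-high nuclei and Megf11 at 1775 and 1653 CPM. The genes of the selection, which every nucleus had to meet, were at 529 and 417 CPM for Chat, 437 and 333 CPM for Slc5a7, 57.0 and 78.5 CPM for Slc18a3 and 406 and 415 CPM for Gad1. Others that were high in the class comparison leaned to one side or the other. On the Cntn5 side, Sox2ot was at 1122 CPM in Tenm3-high and 2118 CPM in Cntn5-high nuclei and Gm38505 at 260 and 785 CPM, each in 8 of 8 libraries. Pmfbp1 was at 15.8 and 153 CPM, Megf10 at 41.2 and 87.1 CPM, Slc24a4 at 269 and 390 CPM and Hmga2 at 196 and 330 CPM, each in 7 of 8 libraries. On the Tenm3 side, Pdgfc was at 342 and 234 CPM, Moxd1 at 441 and 361 CPM and Galnt15 at 117 and 74.2 CPM, each in 6 of 8 libraries. Frmd7 was at 105 and 68.5 CPM, higher in 3 of 8 libraries. The markers of the known populations were sparse. Rnd3 had UMIs in 12 Tenm3-high and 2 Cntn5-high nuclei. The 3 nuclei with Fezf1, from control replicate 4 and cKO replicate 10, were all Cntn5-high, as were 106 of all 162 nuclei.

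**Figure D4:**
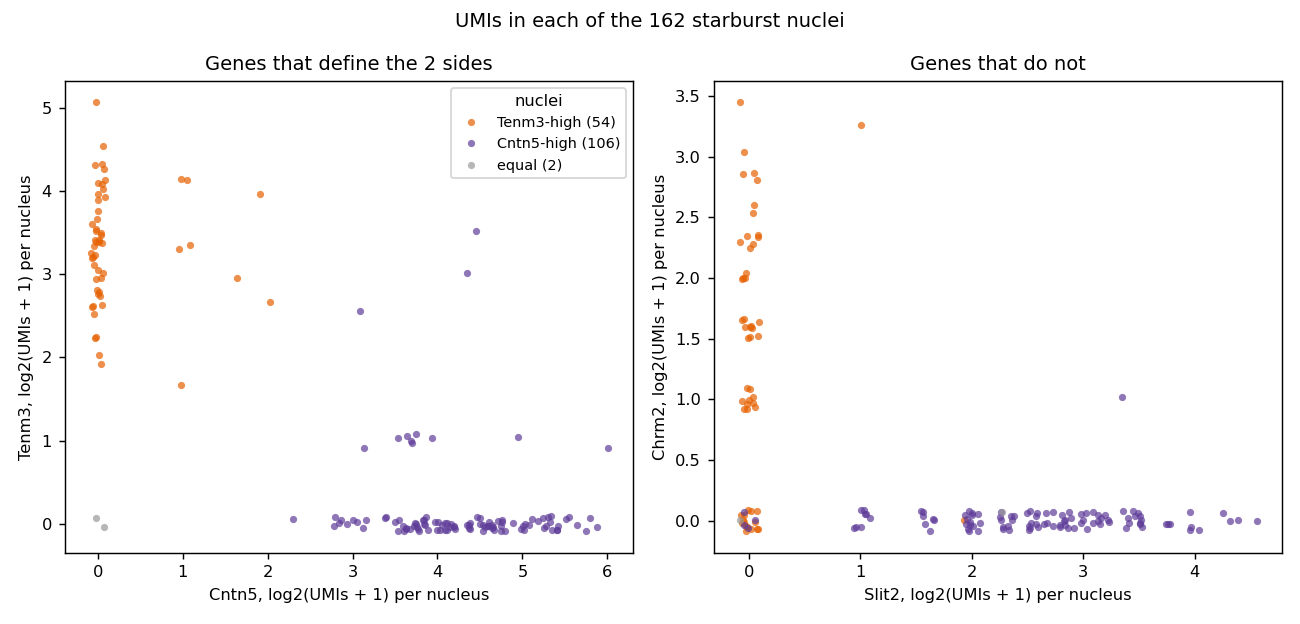
UMIs of each starburst nucleus as log2(UMIs + 1), with a small fixed jitter, coloured by whether Tenm3 (54 nuclei) or Cntn5 (106 nuclei) was higher and with 2 equal nuclei. The left panel plots the 2 genes that define the sets, and the right panel 2 genes that do not, Chrm2 with 119 of its 120 UMIs in Tenm3-high nuclei and Slit2 with 651 UMIs in Cntn5-high nuclei.

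By genotype, starburst nuclei made up 15.1%, 14.5%, 17.8% and 12.0% of GABAergic nuclei in control replicates 1 to 4 and 19.2%, 5.31%, 10.3% and 9.55% in cKO replicates 10 to 13. The highest and the lowest libraries were both cKO, with exact (Clopper-Pearson) 95% intervals of 13.7% to 25.8% for 34 of 177 nuclei and 1.97% to 11.2% for 6 of 113. These intervals treat the nuclei of a library as independent and cover counting error only. The means were 14.8 ± 2.38% and 11.1 ± 5.84% (SD, n = 4 libraries each), a difference of -3.76 percentage points (exact two-sided permutation p = 0.257 over 70 assignments, smallest possible 0.0286). The groups overlapped, and the difference turned to 0.124 points when 3 Gad UMIs were needed in both classes and was -0.013 points when all 3 cholinergic genes were required. It was -6.47 points without cKO replicate 10, where the groups no longer overlapped, -1.83 points without cKO replicate 11 and -7.39 points after thinning to 2000 UMIs. As a share of the 14874 barcodes with at most 1 Rbpms or Slc17a6 UMI, starburst nuclei were at 1.25 ± 0.336% and 0.932 ± 0.458% (exact permutation p = 0.257). The Tenm3-high share, over the starburst nuclei with unequal Tenm3 and Cntn5 UMIs, was 11.8%, 29.2%, 37.9% and 26.7% in control and 23.5%, 40.0%, 66.7% and 47.6% in cKO libraries, with means of 26.4 ± 10.9% and 44.5 ± 17.9%. These groups overlapped as well.

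**Figure D5:**
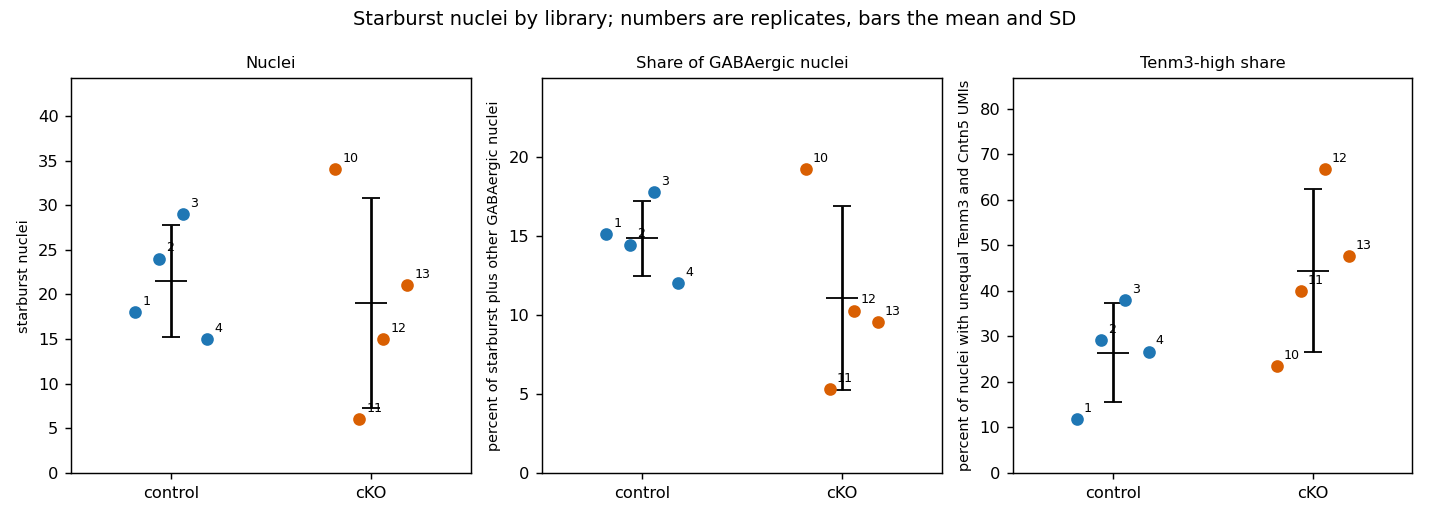
Starburst nuclei by library and genotype, with numbered points for the replicates (1 to 4 control, 10 to 13 cKO) and bars for the mean and SD of 4 libraries. The starburst share of GABAergic nuclei ranges from 12.0% to 17.8% in control and from 5.31% to 19.2% in cKO libraries.

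Piezo2, the targeted gene, was seen in 1 starburst nucleus. It had 7 UMIs in control replicate 2 and 0 in each of the other libraries, which gave 10.3 ± 20.7 CPM in control and 0 CPM in cKO. With 1 library above 0, the exact permutation test can give only p = 1.0 and says nothing of a difference. The floor of 3 counts lay between 12.6 and 158 CPM per library. All 7 UMIs came from 1 nucleus of 20406 UMIs that also held 186 UMIs of Cryab and 137 of Cryaa, which encode lens and stress crystallins, and which doublet scoring marked. None of 76 cKO nuclei held a Piezo2 UMI, which allows a share of nuclei with a UMI of up to 3.95% and sets no limit on the share that express the gene at a lower level. This limit pools the nuclei of 4 libraries as if they were independent and covers counting error only. In the other GABAergic nuclei Piezo2 stood between 0.820 and 7.03 CPM. In the RGC reference it stood at 18.5, 14.6, 15.3 and 12.4 CPM in control and 15.5, 13.9, 13.0 and 8.42 CPM in cKO libraries. Cre removes part of the gene only, and a 3′ tag outside that part cannot check the deletion. Olig1 and Olig2 had no UMI in the starburst nuclei.

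No gene passed the genotype test within starburst nuclei. The fit used the 7 libraries with more than 10 starburst nuclei, leaving out cKO replicate 11, and called 0 of 3206 genes (0.0%) by edgeR, with 80 at an unadjusted p under 0.05 and a smallest adjusted p of 0.475. DESeq2 also called 0, with 23 at an unadjusted p under 0.05. Without cKO replicate 10 the count was 8, all higher in cKO, among them Lrrtm4, Trpm1, Gpc6, Dmd, Marchf1 and Otx2os1 together with Sgcz and Pde4b, which were also higher in Tenm3-high nuclei. Without control replicate 1 it was 1, which was Lrrtm4. The 8 rod genes summed to between 482 and 958 CPM in control and 909 and 2262 CPM in cKO starburst sums. Of 4 rod genes tested by genotype none passed, at a median log2 fold change of 0.48, and their part in these results was not tested.

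The test of whether the class difference itself differed by genotype called 1 of 7719 genes (0.013%). This was Lrrtm4 (chr6:79995860-80787124, plus strand), a synaptic adhesion protein, at a log2 difference of 3.58 (adjusted p = 0.0144). Its starburst UMIs were 8, 0, 0 and 2 in control and 32, 1, 28 and 71 in cKO libraries, from 11 nuclei. The 3 top nuclei, in cKO replicates 13, 10 and 12, held 127 of the 142 UMIs. The nucleus of cKO replicate 13 had 26002 UMIs, the most of any member, and carried 71 UMIs of Lrrtm4, 37 of Trpm1, the transduction channel of ON bipolar cells, and 30 of Otx2os1. The nucleus of cKO replicate 12 carried 28, 12 and 13 UMIs of these genes and was marked by doublet scoring, and that of cKO replicate 10 carried 28, 0 and 0. The 8 bipolar markers summed to between 537 and 1098 CPM in control and 421 and 1248 CPM in cKO starburst sums, 1 of them without any UMI, and their part in the Lrrtm4 result was not tested. With the doublet-scored nuclei removed the call was lost (adjusted p = 0.668) at a log2 difference of 2.96. It was also lost with DESeq2, at a log2 difference of 4.16 (adjusted p = 0.999). Leaving out control replicate 3 or 4 or cKO replicate 11, 12 or 13 lost it too. There the log2 difference was 3.07 to 3.76 (edgeR adjusted p from 0.0615 to 0.101). With all 3 cholinergic genes required the log2 difference was 0.57 (adjusted p = 1.0).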

How the data were processed

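Per the labels, nuclei sorted with antibodies against NeuN and RBPMS were profiled with 10x Genomics 3′ chemistry. The authors deposited raw, unfiltered UMI counts of 33696 genes per barcode, which the submitters' processing notes credit to Cell Ranger 7.0.0 on GRCm39. How the counting used strand or introns is not given in the sources used here. The members and the 27 gene lists were chosen with earlier results of these data known. Counts were summed per library and class and tested with edgeR 4.0.16 (TMM scaling, filterByExpr, quasi-likelihood F test, Benjamini-Hochberg adjustment). The library was a block in the class comparison, since each library holds both classes. DESeq2 1.42.0 was an alternative. The genes used by the selection and mitochondrial genes stayed out of the class test. Tests were checked on simulated counts with a fixed spread shared by all genes. The simulation had no clumping of UMIs in single nuclei, so the check does not cover genes such as Lrrtm4.

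Named genes were the 15 highest and 10 lowest called genes that kept their direction in all 8 libraries with a mean of at least 50 CPM in the higher class, the called genes of the other comparisons, and the largest members of the lists. Some genes that met this rule are not reported here. Genes of the Tenm3 and Cntn5 sets were the 10 on each side with the largest ratio among those higher in all 8 libraries, and other genes named there were chosen after their values were seen. Doublets were left in, and were removed as an alternative by the highest Scrublet scores (scanpy 1.11.5), at 0.8% of barcodes per 1000. Empty barcodes were those of rank 45000 to 90000 by UMIs. Gene positions are those of GENCODE for GRCm39, matched by Ensembl identifier. The deposited counts carry no other samples. The planned comparison of Fezf1 with Rnd3 nuclei was not run because 3 and 14 nuclei held these genes.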

Additional observations from a re-analysis of the deposited data

Results flagged for a closer look

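Among 85 groups of 4 libraries, 12 held a library far from the other 3 by Dixon's ratio, which chance gives in about 1 of 20 groups of continuous values. That rate does not hold for Piezo2, Gm26871, Nos1 and Cngb3, where the other 3 libraries were at 0. All values are summed levels in starburst nuclei, and no explanation was tested. In control libraries, Cdh6 stood at 869 CPM in 1 library against 571 to 620 CPM in the others, Pmfbp1 at 100.3 CPM against 128 to 133 CPM, and Ache at 38.3 CPM against 8.60 to 13.3 CPM. Piezo2 stood at 41.3 CPM in control replicate 2 against 0 CPM, from 1 nucleus. Lrrtm4 stood at 102 CPM in control replicate 1 against 0 to 17.2 CPM, and Gm26871 at 5.90 CPM, which is 1 UMI, against 0 CPM. In cKO libraries, Hmga2 stood at 365 CPM in replicate 13 against 198 to 210 CPM. Nos1 at 5.89 CPM and Cngb3 at 4.22 CPM were single UMIs against 0 CPM in the others. The remaining cKO cases were replicate 11 with its 6 nuclei, where Megf10 stood at 263 CPM against 47.1 to 71.7 CPM, Ache at 52.6 CPM, again 1 UMI, against 0 to 5.89 CPM, and Npy at 0 CPM against 63.2 to 73.7 CPM.

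The difference between the classes differed by genotype for Lrrtm4, by an edgeR interaction term of 3.58 on the log2 scale (adjusted p = 0.0144). Over the alternatives the adjusted p ranged from 1.81e-13, without the filter on low counts, to 1.0. The log2 difference ranged from 0.57 with all 3 cholinergic genes required and 1.43 after thinning to 5.70 without control replicate 1.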

How the results depend on the processing

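The class comparison called 2077 genes. The count was 3428 without the filter on low counts, 1213 with all 3 cholinergic genes required and 140 of 230 tested after thinning to 2000 UMIs, where fewer genes or nuclei entered. It ran from 1840 to 2089 with each library left out, and the calls shared with those above kept their direction under every alternative. Without the library block, which pairs the 2 classes of a library, it was 2117. No paired analysis was possible because the control and cKO replicates share no number, so the genotype comparison has no block. The genotype count of 0 was 33 without the filter and 25 with 3 Gad UMIs required, which left 3 libraries with 1 control among them, assumed to vary like the others, and it ran from 0 to 8 with a library left out. The interaction count of 1 was 4 without the filter, and 0 with DESeq2, with 3 Gad UMIs, without doublets, after thinning and with no Rbpms or Slc17a6 UMI, an alternative chosen after seeing the data. Where the call of Lrrtm4 was lost its log2 difference was 4.16 with DESeq2, 2.96 without doublets, 3.07 with no Rbpms or Slc17a6 UMI, 2.36 with 3 Gad UMIs and 1.43 after thinning. With all 3 cholinergic genes it was 0.57, and the 1 gene called was another. The interaction count ran from 0 to 16 with a library left out, reaching 16 without cKO replicate 10 and 0 without control replicate 3 or 4 or cKO replicate 11, 12 or 13. In the fits that called 0, the log2 difference of Lrrtm4 was, in that order, 3.07, 3.43, 3.76, 3.35 and 3.20. The difference in starburst share was 0.124 points with 3 Gad UMIs and -0.013 points with all 3 cholinergic genes. It was -7.39 points after thinning and negative under the other alternatives, from -6.47 to -1.83 with a library left out. The difference was -6.47 without cKO replicate 10 (exact permutation p = 0.0571 over 35 assignments) and -1.83 without cKO replicate 11. Piezo2 was at 0 CPM in both genotypes without control replicate 2. Alternatives for single genes were compared for the 15 highest, the 10 lowest and some of the other named genes only. Of those alternatives 819 kept direction and call, 4 lost the call and 4 reversed. Chrm2 turned to -0.43 with all 3 cholinergic genes, and its call was lost with DESeq2, with 3 Gad UMIs (adjusted p = 0.232) and without cKO replicate 12 (adjusted p = 0.0543). Kcnc2 turned to -0.058 without the filter, -0.015 with 3 Gad UMIs and -0.14 with all 3 cholinergic genes. The call of Grm7 was lost after thinning (log2 fold change 0.60, adjusted p = 0.0568). Except where the construction shows it, the cause was not tested. The genotype alternatives with all 3 cholinergic genes and with thinning could not be fitted. The genotype fit rests on 15 to 34 nuclei per library. Without the filter p-values were far smaller at a like fold (Lrrtm4 by genotype, edgeR adjusted p = 0.475 and 1.1e-16 at log2 fold changes of 3.77 and 3.78), so the counts without it are given as values only.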
